A study of Mus musculus with 2 samples.

Results

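The smooth muscle cells (SMCs) described here carried transcripts of the cardiac transcription factor genes Hand2 or Tbx20, or of the antisense transcript Hand2os1, in the thoracic aorta of adult mice. They numbered 577 of the 2226 SMCs that passed a gate on SMC transcripts, and 577 of 15210 cells deposited in all. The gate kept cells with at least 5 UMIs (unique molecular identifiers, each standing for 1 captured mRNA molecule) of Myh11, Cnn1 and Lmod1 together, at least 5 UMIs of the eGFP reporter and none of Pecam1, Cdh5, Ptprc or Pdgfra. Within it, a cell was selected on at least 1 UMI of Hand2, Hand2os1 or Tbx20, with 0 UMIs of Dlx6, Dlx6os1 and Msx2 and 0 UMIs of Hoxa7, Hoxb6, Hoxb7 and Hoxb8. The remaining 1649 SMCs of the gate served as the comparison, of which 364 carried only the Dlx6/Msx2 family and 448 only the Hox family. The 10 genes of this rule and the 8 of the gate chose the cells, so their levels are given as a description and were not tested.

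Both libraries came from 1 group of animals and no treatment was compared. The mice were tamoxifen-treated Myh11-CreERT2.mT/mG animals on a C57BL/6J background, designated GFPiSMC or WT, in which Cre fused to an estrogen receptor is driven by the SMC promoter Myh11 and a recombined cell switches from membrane tdTomato to eGFP. Tamoxifen was given at 1 mg per day over 5 days when the mice were 3 weeks old, and aortas were taken at 12 weeks. Each library held the viable single cells of 1 aorta after digestion in the cold (n = 2 aortas). The labels listed 8947 and 6263 cells before and 6278 and 4300 cells after the study's filtering. The files held 8947 and 6263 cells, of which 1916 and 1295 met the filter in the study's methods (eGFP over 1, 5000 to 25000 UMIs), 3919 and 2560 met it without the eGFP term, and 5275 and 3524 passed the filter used here (more than 200 genes, 3000 to 25000 UMIs and under 10% mitochondrial UMIs). The eGFP reporter was at 7325 and 6796 CPM (the gene's UMIs scaled to a common library total) in the Hand2/Tbx20 SMCs and 6671 and 6628 CPM in the other SMCs of aortas 1 and 2. Across libraries 18 cell barcodes were shared, of which 1 lay in the gate and 0 among the Hand2/Tbx20 SMCs.

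Hand2 is a basic helix-loop-helix factor and Tbx20 a T-box factor. Both are known for their part in the formation of the heart and its outflow tract, and Hand2os1 is a long noncoding RNA that starts beside Hand2 on the opposite strand. SMCs of the thoracic aorta are known to come from several embryonic sources, among them the second heart field at the root, the neural crest in the ascending aorta and arch, and the somitic mesoderm in the descending aorta. Dlx and Msx genes are used by neural crest cells of the pharyngeal arches, and Hox genes mark position along the trunk. The position of a cell along the aorta was not recorded in these libraries.

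On mm10 (GRCm38, GENCODE vM21) Hand2 lies on the plus strand of chromosome 8 from 57320983 to 57324633, and Hand2os1 on the minus strand from 57281117 to 57324233, so that the antisense gene spans most of the Hand2 gene. By RefSeq the Hand2os1 start lies 124 bases before the Hand2 start, and the pair runs in opposite directions. Tbx20 lies on the minus strand of chromosome 9 from 24718138 to 24774303. The 250 bases before the RefSeq start (build GRCm38.p6) are shown for Hand2, because this window ends at the Hand2 start and holds the Hand2os1 start, and for Tnnt2, the sarcomere gene with the largest count of UMIs among the genes that rose most in these cells. The Hand2 window is chr8:57320733-57320982 and the Tnnt2 window chr1:135836084-135836333, both on the plus strand. Capitals mark the E-box CANNTG, which basic helix-loop-helix factors bind, and the GATA motif AGATAA or its reverse complement TTATCT.
Hand2: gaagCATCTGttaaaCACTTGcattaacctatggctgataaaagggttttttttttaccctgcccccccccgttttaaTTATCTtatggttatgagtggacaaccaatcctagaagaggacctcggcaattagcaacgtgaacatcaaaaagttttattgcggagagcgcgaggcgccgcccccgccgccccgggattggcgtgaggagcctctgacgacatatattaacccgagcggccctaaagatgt
Tnnt2: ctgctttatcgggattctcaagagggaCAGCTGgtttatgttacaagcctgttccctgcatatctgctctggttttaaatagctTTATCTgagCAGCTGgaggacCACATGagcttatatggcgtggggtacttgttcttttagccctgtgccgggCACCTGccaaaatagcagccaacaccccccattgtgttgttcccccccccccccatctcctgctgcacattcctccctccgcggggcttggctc
The Hand2 window held 2 E-boxes and 1 GATA match, and the Tnnt2 window 4 E-boxes and 1 GATA match, with no overlap between them. Both windows lacked the T-box core AGGTGT (or ACACCT) and the CArG box, all searched on both strands. Among 32851 windows of the same length, 66.2% held an E-box, 9.99% a GATA match, 11.8% a T-box core and 1.47% a CArG box. These matches describe the letters of the windows and were not tested for binding.

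In aorta 1 the class held 401 of 1306 gated SMCs, or 30.7% (95% exact Clopper-Pearson interval 28.2% to 33.3%). In aorta 2 it held 176 of 920, or 19.1% (16.6% to 21.8%), so the share of aorta 1 was above that of aorta 2 beyond counting error (mean 24.9% ± 8.18, SD, n = 2). Intervals here cover counting error only. The Dlx6/Msx2 class made up 15.0% and 18.3% of the gate, the Hox class 18.2% and 22.8%, cells with several families 3.45% and 3.804%, and cells without a UMI of any family 32.6% and 35.98%. Hand2/Tbx20 SMCs had medians of 9696 and 9376 UMIs per cell, against 7989 and 7686 in Dlx6/Msx2 SMCs, 9731 and 9075 in Hox SMCs and 6938 and 7472 in cells with no marker UMI. A cell read more deeply has more chance to show a marker UMI, and with each cell thinned to 3000 UMIs the class held 17.4% and 10.4% of the gate.

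**Figure D1:**
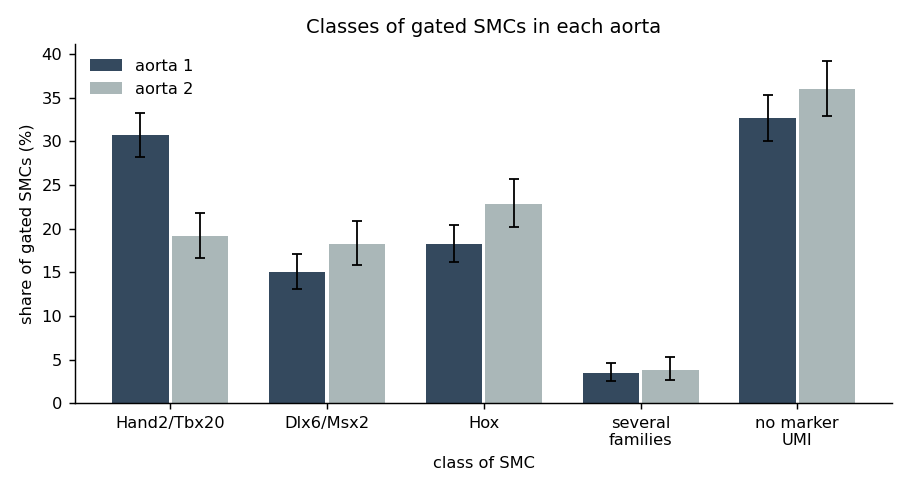
Share of gated SMCs in each class, in percent, for aorta 1 (dark bars) and aorta 2 (light bars), with exact 95% intervals as error bars. The Hand2/Tbx20 class reached 30.7% in aorta 1 and 19.1% in aorta 2, and cells with no marker UMI reached 32.6% and 35.98%.

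Hand2 stood at 121 CPM in aorta 1 and 128 CPM in aorta 2 within the class, Hand2os1 at 78.5 and 48.5 CPM, and Tbx20 at 26.2 and 29.5 CPM. The 2 aortas were close for Hand2 and Tbx20, and Hand2os1 was lower in aorta 2. Hand2 was detected in 70.8% and 82.4% of the cells, Hand2os1 in 46.9% and 30.7%, and Tbx20 in 22.2% and 23.3%. The class was thus chosen mainly by Hand2 and Hand2os1: 312 and 135 cells had one of these without Tbx20, 37 and 15 had Tbx20 alone, and 52 and 26 had both. At the edge of the rule, 168 and 87 cells entered with a single marker UMI, and the highest count was 8 and 7 UMIs. Left out were 33 and 29 SMCs with a marker UMI and a UMI of another family, of which 16 and 12 were excluded by exactly 1 UMI.

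How often the markers occurred in the same cells is given as a description, since the rule used them. Tbx20 was detected in 14.3% (10.98% to 18.1%) of SMCs with a Hand2 or Hand2os1 UMI in aorta 1 and in 4.60% (3.33% to 6.16%) of those without. In aorta 2 the shares were 15.2% (10.4% to 21.2%) and 2.85% (1.77% to 4.33%). At 3000 UMIs per cell the same shares were 7.73% against 2.18% and 9.20% against 1.32%. Hand2os1 was found in 36.9% and 25% of SMCs with Hand2, against 8.32% and 2.13% of those without. Reads from Hand2 and Hand2os1 overlap on opposite strands, and the strand setting of the counting is not given in the sources used here. The marker families were seldom seen together before the rule excluded such cells: at 3000 UMIs per cell, Dlx6, Dlx6os1 or Msx2 was found in 0.866% and 1.02% of SMCs with a Hand2/Tbx20 UMI against 12.0% and 13.5% of SMCs without, and the 4 Hox genes in 0.866% and 1.02% against 11.3% and 15.3%. Free RNA was gauged in leukocytes (at least 2 UMIs of Ptprc), where 0.823% and 1.15% of cells held a Hand2 or Hand2os1 UMI at medians of 5795 and 6244 UMIs, and 0 of 729 and 0 of 433 held Tbx20.

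Against all other SMCs of the gate, the Hand2/Tbx20 SMCs had higher transcript levels of Lpl and of 10 of 39 contractile genes, Tnnt2 and Des among them. They had lower levels of 6 of 20 elastic fiber genes (0 against Hox SMCs or SMCs with no marker UMI) and of Grem1, a bone morphogenetic protein (BMP) antagonist gene. Of 17 neural crest and pharyngeal arch factors 9 were lower, a count tied to the rule, which kept Dlx6, Dlx6os1 and Msx2 out of the members and left 364 Dlx6/Msx2 SMCs in the comparison. UMIs were summed per aorta and class, and 11584 genes were compared by quasi-likelihood in edgeR, with p-values adjusted after Benjamini and Hochberg. At an adjusted p under 0.05, 166 genes were higher (1.43% of those tested) and 295 lower (2.55%), and each of the 461 had the same direction in both aortas. More than 2-fold apart were 30 higher and 193 lower genes. Members and other cells of an aorta come from the same animal, and with the aorta as a term in the model the called genes numbered 1137 (579 higher, 558 lower). Without TMM scaling the split was 105 higher and 372 lower, with the median log2 difference of all genes at -0.09.

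Tnnt2, the cardiac troponin T gene on chromosome 1 (135836354 to 135852260), stood at 261 CPM in the Hand2/Tbx20 SMCs of aorta 1 and 104 CPM in those of aorta 2, against 43.2 and 36 CPM in the other SMCs. The level was 11.8 and 6.11 CPM in Dlx6/Msx2 SMCs, 12.5 and 23.4 CPM in Hox SMCs and 60.2 and 63.9 CPM in cells with no marker UMI, all below both Hand2/Tbx20 sums. In the Dlx6/Msx2 SMCs of aorta 1 a single cell held 17 of the 19 UMIs, and without it the level was 1.25 CPM. Cells with several families, some of which carried a Hand2/Tbx20 UMI, stood at 180 and 14.2 CPM, so in aorta 1 they overlapped the Hand2/Tbx20 sums. The log2 difference was 2.36 ± 0.30 (SE, edgeR adjusted p = 0.00072) against all other SMCs. In single cells Tnnt2 was detected in 40.6% and 25.6% of the class, with up to 79 UMIs in a cell, against 1.53% and 3.57% of Dlx6/Msx2 SMCs and 7.56% and 7.62% of Hox SMCs. The tenth of the cells with the most Tnnt2 held 74.0% and 72.8% of its UMIs, so the transcript was spread unevenly within the class. Psd was detected in 44.4% of the 54 cells with at least 5 Tnnt2 UMIs in aorta 1 and in 15.1% of the 238 cells with none, and in aorta 2 in 16.7% of 12 cells and 7.63% of 131. Pde1c was at 9.26% against 10.5% in aorta 1 and 0% against 10.7% in aorta 2, and Tbx20 was at 18.5% against 21.0% and 25% against 23.7%. The cells with more Tnnt2 were also deeper, with medians of 10857 against 9559 UMIs and 10212 against 9218 UMIs.

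Des, which encodes the intermediate filament protein desmin, followed the same order across aortas. Its level was 217 and 119 CPM in the class and 66.2 and 52.3 CPM in the other SMCs (log2 difference 1.64 ± 0.21, edgeR adjusted p = 0.00094, but 0.26 and not called with members by Tbx20 alone), with 18.6 and 8.40 CPM in Dlx6/Msx2 SMCs. The setting with members by Tbx20 alone put the 312 and 135 cells without Tbx20 among the other SMCs, so both sides changed. Popdc2, a cyclic AMP-binding membrane protein gene of striated muscle, stood at 35.8 and 32.6 CPM against 13 and 14 CPM (1.45 ± 0.15). Popdc2 was nearly equal in the 2 aortas, whereas Tnnt2 and Des were higher in aorta 1.

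Pde1c had the highest log2 difference of the genes that met the naming rule, though not with at least 2 UMIs per family, where it was 1.63 and below that of Psd, Tnnt2 and Pola2. At 2 UMIs per family the members with 1 marker UMI, which held Pde1c at 17.9 and 18.6 CPM, were counted among the other SMCs. With members chosen by Tbx20 alone, and those with Hand2 or Hand2os1 alone counted among the other SMCs, the Pde1c difference was 0.77 and not called. Pde1c encodes a calmodulin-dependent phosphodiesterase that breaks down cyclic nucleotides, and lies on chromosome 6 from 56069804 to 56569103. The class held 13.9 and 16.0 CPM (55 and 26 UMIs) against 1.84 and 1.47 CPM in the other SMCs (3.19 ± 0.30, edgeR adjusted p = 0.00014), and the Hox SMCs had 0 UMIs in both aortas, a difference of at least 20.5-fold against a floor of 3 UMIs over both aortas. Psd, a guanine nucleotide exchange factor gene for the small GTPase Arf6 that overlaps Nfkb2 on the other strand, was at 48.7 and 16.6 CPM against 8.27 and 4.24 CPM (2.61 ± 0.38). Lpl, the gene for lipoprotein lipase, was at 50.7 and 36.2 CPM against 16.8 and 13.7 CPM (1.65 ± 0.18, edgeR adjusted p = 0.00028). Lpl was at most 18.8 CPM in Dlx6/Msx2 SMCs, Hox SMCs and cells with no marker UMI, and at 38.5 and 19.9 CPM in cells with several families.

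Pola2, a subunit gene of DNA polymerase alpha, stood at 20.2 and 17.8 CPM against 7.22 and 5.54 CPM, and the checkpoint kinase gene Chek2 at 14.6 and 12.3 CPM against 5.64 and 6.03 CPM. The immediate-early gene Fos was at 111 and 59.6 CPM against 33.7 and 33.4 CPM (1.52 ± 0.21). In each aorta 1 cell stood out, which held 84 of its 441 UMIs in aorta 1 and 78 of its 97 UMIs in aorta 2, and without that cell the class stood at 90.3 and 11.7 CPM, below the other SMCs in aorta 2. The Fos difference was 0.37 at 3000 UMIs per cell and 0.75 with at least 2 UMIs per family, and was not called in either. Bex4, Bmp3 (a BMP family ligand gene) and Olfr224 (an olfactory receptor gene) completed the 12 highest, with log2 differences of 1.21 ± 0.14, 1.18 ± 0.16 and 1.15 ± 0.20. DESeq2 did not call Psd, Fos, Chek2 and Olfr224, and at 3000 UMIs per cell Pola2, Des, Fos, Chek2 and Olfr224 were not called. With members by Tbx20 alone Tnnt2 (1.47) and Popdc2 (1.03) were still called and the other 10 were not, among them Psd at 0.76, Pola2 at 0.78 and Lpl at 0.93. That setting left 89 and 41 members, against other SMCs that included the members with Hand2 or Hand2os1 alone.

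**Figure D2:**
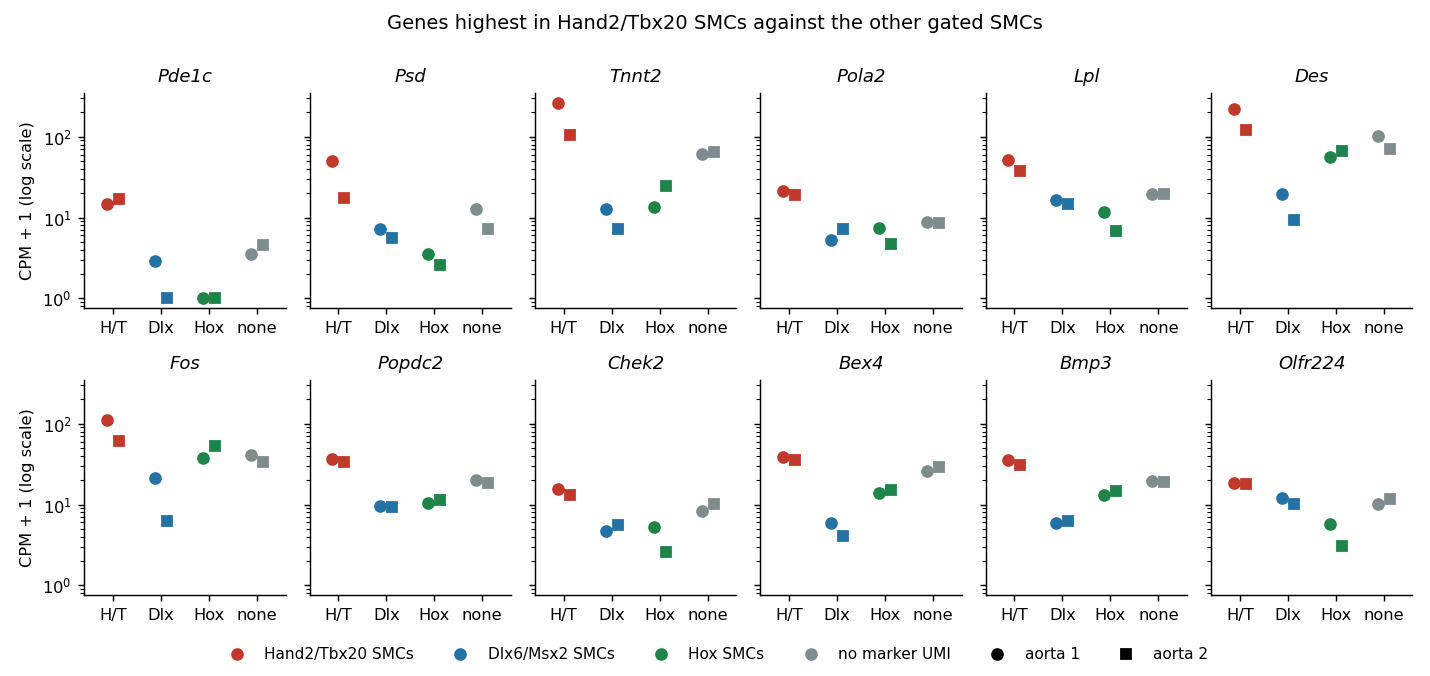
Level of the 12 highest genes in CPM + 1 on a log axis, with 1 point per aorta (circles, aorta 1, squares, aorta 2) for Hand2/Tbx20 SMCs (H/T), Dlx6/Msx2 SMCs (Dlx), Hox SMCs (Hox) and SMCs with no marker UMI (none). Both Hand2/Tbx20 points lie above the points of the other 3 classes drawn for each gene, for example Lpl at 50.7 and 36.2 CPM against at most 18.8 CPM.

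The genes lowest in the class were nearly absent from it. Krt15 (a type I keratin gene) had 0 UMIs in both aortas against 99 and 34 UMIs in the other SMCs, a level at least 18.0-fold lower. The cell adhesion gene Cadm1 had 0 UMIs against 30 and 24 (at least 7.32-fold lower), and the plasma membrane calcium pump gene Atp2b2 0 against 21 and 22 (at least 5.83-fold lower). A single UMI was seen for each of Nrn1, Grem1, Fgf12, Pappa2, Mab21l2, Nell2 and Hoxb5os. By the ratio of UMIs to class totals, Grem1 was 58.1 times higher in the other SMCs (exact interval 10.3 to 2312), and Nrn1, the gene for neuritin, 102 times (18.1 to 4031). DESeq2 did not call Atp2b2 and Hoxb5os, and at 3000 UMIs per cell Nrn1 and Grem1 were not called. Of the 24 named differences against the other SMCs, 8 were still called at that depth, 7 were not and the rest had no value. With members by Tbx20 alone, Nrn1 and Gng2 were the only ones of the lowest genes still called. Members then numbered 89 and 41, and those with Hand2 or Hand2os1 alone were counted among the other SMCs. Gng2, a G protein gamma subunit gene, had 5 and 1 UMIs in the class against 248 and 212 (log2 difference -4.85 ± 0.29, edgeR adjusted p = 9.4e-06). The classes that held these genes varied. Gng2 stood at 114 and 126 CPM in Dlx6/Msx2 SMCs and 2.15 and 0 CPM in Hox SMCs, whereas Hoxb5os stood at 8.19 and 6.24 CPM in Hox SMCs and 0.62 and 1.53 CPM in Dlx6/Msx2 SMCs. For Pappa2, 1 cell in each aorta held 23 of 28 and 15 of 19 UMIs of the Hox SMCs, and for Krt15, 1 cell in each held 19 of 62 and 18 of 32 UMIs of the Dlx6/Msx2 SMCs.

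**Figure D3:**
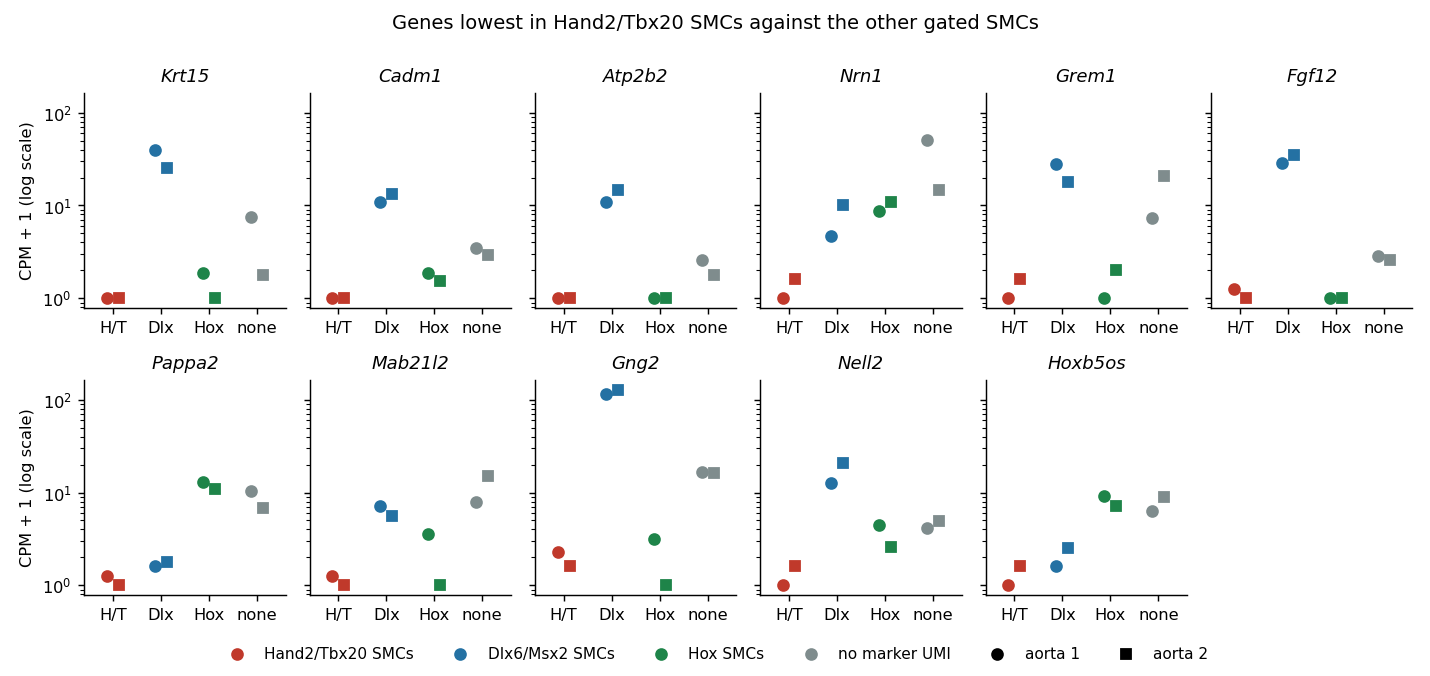
Level of 11 of the lowest genes in CPM + 1 on a log axis, with 1 point per aorta and the classes in the same order and symbols as in the plot of the highest genes. Hand2/Tbx20 SMCs lie at or near 0 CPM for each gene, while Gng2 reached 126 CPM in Dlx6/Msx2 SMCs and Nrn1 49.5 CPM in cells with no marker UMI.

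The Dlx6/Msx2 SMCs differed from the Hand2/Tbx20 SMCs in the most genes. Of 10608 genes tested in 1 model of all 5 classes, 995 were higher (9.38%) and 930 lower (8.77%) in the Hand2/Tbx20 SMCs, and 1924 of these 1925 had the same direction in both aortas. Without TMM scaling the split was 654 higher and 1655 lower, and the median log2 difference of all genes moved from -0.02 to -0.21. Pln, the gene for phospholamban, a regulator of the sarcoplasmic calcium pump, had 163 and 34 UMIs in the Hand2/Tbx20 SMCs and 2 and 0 in Dlx6/Msx2 SMCs, a ratio of 51.5 (14.1 to 428). Wnt16, a Wnt ligand gene, stood at 111 and 119 CPM against 6.20 and 4.58 CPM (4.55 ± 0.27, edgeR adjusted p = 2.2e-10). Sncg (gamma-synuclein) was at 155 and 135 CPM against 12.4 and 3.82 CPM, of which 1 cell held 18 of 20 UMIs in aorta 1, and Dgkb (diacylglycerol kinase beta) at 34.6 and 30.7 CPM against 2.48 and 1.53 CPM. For these genes the Hox SMCs lay near the Hand2/Tbx20 SMCs: Sncg was at 163 and 225 CPM and Dgkb at 38.3 and 33.8 CPM in Hox SMCs, and neither passed the test between those classes.

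Lowest against the Dlx6/Msx2 SMCs were Krt15 (at least 60.0-fold lower), the intracellular fibroblast growth factor homolog gene Fgf12 (a ratio of 172, 30.1 to 6878), Gng2, Grem1, Adamtsl1 and Chrdl2. Adamtsl1, an ADAMTS-like matrix protein gene, stood at 1.77 and 8.60 CPM in the Hand2/Tbx20 SMCs against 338 and 303 CPM (-6.18 ± 0.25, edgeR adjusted p = 2.3e-12). Chrdl2 encodes a further BMP antagonist of the chordin type and had 0 and 2 UMIs against 69 and 28.

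Against the Hox SMCs far fewer genes passed. Of the same 10608 genes, 96 were higher (0.905%) and 90 lower (0.848%) in the Hand2/Tbx20 SMCs. With the aorta as a term in the model, 353 were called (199 higher, 154 lower). The highest were Pde1c, Psd, Tnnt2, Sphkap, Brip1 and Prune2. Sphkap, a gene for a protein kinase A anchoring protein, stood at 11.1 and 25.2 CPM against 0.862 and 2.60 CPM (3.25 ± 0.56), but Dlx6/Msx2 SMCs had more, 39.7 CPM in each aorta. Prune2 was also higher in Dlx6/Msx2 SMCs (37.8 and 31.3 CPM) than in the Hand2/Tbx20 SMCs (16.7 and 14.1 CPM), a difference that passed the test (-0.95 ± 0.29, edgeR adjusted p = 0.028). Brip1, a DNA repair helicase gene, stood at 26.7 and 27.0 CPM against 5.60 and 3.12 CPM in Hox SMCs and 22.9 and 16.8 CPM in Dlx6/Msx2 SMCs. Among the lowest against the Hox SMCs were Hoxc6, Sema3a, Hoxb5, Aknad1 and Vegfd. Sema3a, a guidance ligand gene, had 4 and 0 UMIs against 57 and 62 (-5.16 ± 0.45, edgeR adjusted p = 1.7e-06), and the lymphatic growth factor gene Vegfd stood at 3.78 and 2.46 CPM against 18.1 and 31.7 CPM. Hoxc6 and Hoxb5 are neighbors in kind of the genes that define the Hox class, so their difference is tied to the rule. DESeq2 did not call Tnnt2 against the Hox SMCs, and at 3000 UMIs per cell Sphkap, Prune2 and Vegfd were not called. Of the 12 named differences against the Hox SMCs, 3 were still called at that depth, 3 were not and the rest had no value.

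Against SMCs with no UMI of any family, 32 genes were higher (0.302%) and 104 lower (0.98%). With the aorta as a term 273 were called (99 higher, 174 lower). Those cells were shallower and can include cells of each class whose marker was missed. Highest again were Pde1c, Psd, Tnnt2, Pola2, Fos and Lpl, with log2 differences between 1.32 and 2.32 (Fos was 0.15 at 3000 UMIs per cell and not called). DESeq2 called Lpl and not the other 5. Lowest were Nrn1, Grem1, Mab21l2, Hoxb5, Gng2 and Tfap2b. Nrn1 was most abundant in the cells with no marker UMI (49.5 and 13.7 CPM), with the higher level in aorta 1.

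For description, levels were also set out by the number of marker UMIs, counted over Hand2, Hand2os1 and Tbx20 in SMCs without a UMI of another family. Tnnt2 stood at 60.2, 162, 280 and 359 CPM in cells with 0, 1, 2 and 3 or more marker UMIs in aorta 1, and at 63.9, 74.3, 81.5 and 184 CPM in aorta 2. Rgs5, a regulator of G protein signaling that marks pericytes, stood at 755, 193, 135 and 116 CPM in aorta 1 and 693, 305, 266 and 260 CPM in aorta 2. Wnt16 went from 77.1 and 53.7 CPM at 0 marker UMIs to 120 and 131 CPM at 1, and stood at 106 and 120 CPM at 3 or more. Pde1c stood at 2.51, 17.9, 15.3 and 8.13 CPM in aorta 1 and at 3.53, 18.6, 8.58 and 19.6 CPM in aorta 2. The steps are the counts by which the rule chose the members, and the genes were taken from the same comparison, so these levels are a description and support nothing. Median depth was also higher along these steps, from 6938 to 10446 UMIs in aorta 1 and from 7472 to 10207 in aorta 2, and its part in the levels was not tested.

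**Figure D4:**
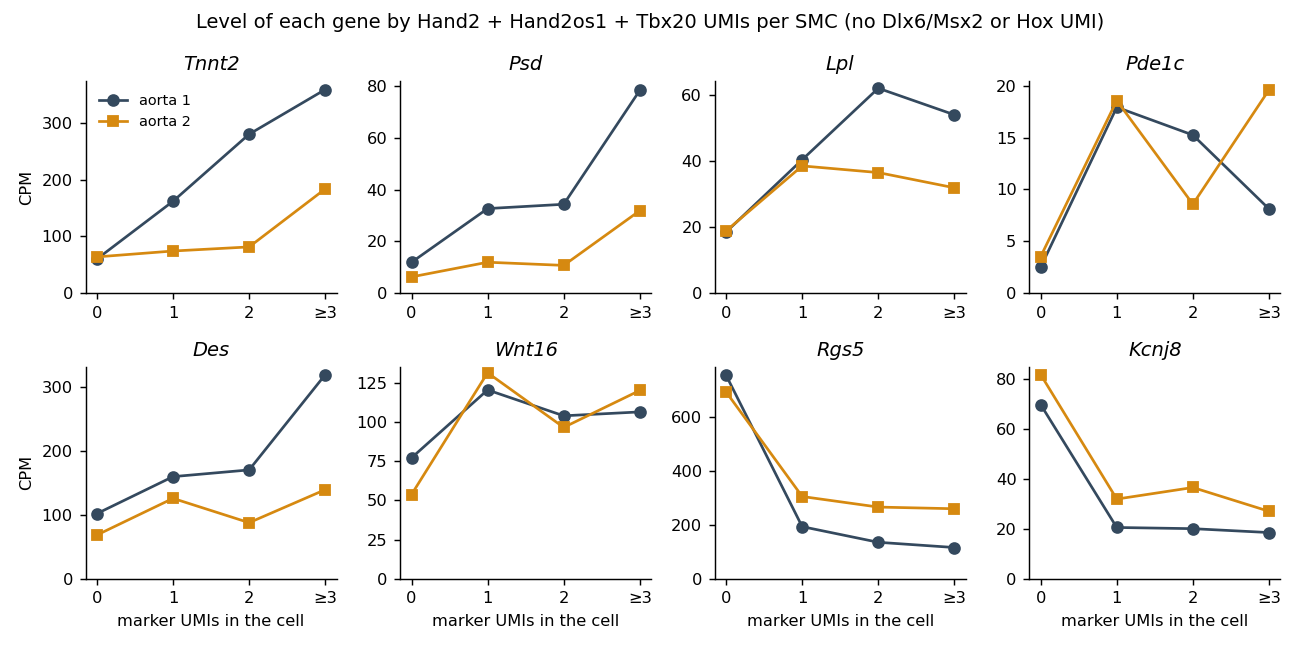
Level in CPM (linear axis from 0) of 8 genes in SMCs grouped by their Hand2, Hand2os1 and Tbx20 UMIs (0, 1, 2 and 3 or more), with 1 line per aorta (circles, aorta 1, squares, aorta 2) and no error bars. Tnnt2 stood at 60.2 and 359 CPM at the ends of the steps in aorta 1 and at 63.9 and 184 CPM in aorta 2, while Rgs5 and Kcnj8 were highest at 0 marker UMIs.

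Within the class, cells with Hand2 or Hand2os1 alone were compared with cells with Tbx20 alone, which numbered 37 and 15. At an adjusted p under 0.05 edgeR called 0 of 5946 genes, with 210 at an unadjusted p under 0.05 and the lowest adjusted p at 0.0774. DESeq2 called 0 and edgeR with the aorta as a term 5, all higher in the Hand2 cells.

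The count of each gene list is to be read against the share of all genes, which was 1.43% higher and 2.55% lower against the other SMCs, 9.38% and 8.77% against Dlx6/Msx2 SMCs and 0.905% and 0.848% against Hox SMCs. Cardiac transcription factors other than the markers were split. Of 36 listed genes 23 were tested against the other SMCs, with 2 higher, 5 lower and a median log2 difference of -0.07. With DESeq2 0 were higher and 3 lower, so that the calls of Isl1 and Smarcd3 were lost. Isl1, a marker of second heart field progenitors, had 12 and 6 UMIs in the class against 3 and 0 in the other SMCs, a ratio of 14.8 (4.31 to 78.2). Smarcd3, a cardiac chromatin remodeling subunit gene, stood at 172 and 167 CPM against 133 and 135 CPM (0.43 ± 0.09). Hox SMCs held Smarcd3 at much the same level as the class, 175 and 167 CPM, and Dlx6/Msx2 SMCs at 83.1 and 95.5 CPM. Gata4 had 24 and 1 UMIs in the class against 7 and 2 in the other SMCs and Nkx2-5 had 3 and 2 against 3 and 0, and both were too few to be tested. Tbx3, a T-box repressor gene, had 2 and 0 UMIs against 45 and 30, a ratio of 15.2 (4.08 to 128) in favor of the other SMCs that DESeq2 did not call. Foxf1 was at 8.58 and 13.5 CPM against 36 and 33.7 CPM (-1.70 ± 0.19), close to the Hox SMCs at 15.1 and 12.5 CPM. Against the Hox SMCs Meis2 (0.91 ± 0.17) and Osr1 (0.71 ± 0.10) were higher. The abundant factors Mef2c (278 and 280 CPM against 297 and 273 CPM) and Gata6 (120 and 122 CPM against 129 and 121 CPM) did not pass.

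Of 17 tested neural crest and pharyngeal arch factors 0 were higher and 9 lower (6 with DESeq2) against the other SMCs, where 2.55% of all genes were lower, with a median of -0.90, where the median over all tested genes was -0.000218. Against the Dlx6/Msx2 SMCs 11 of 16 were lower and 1 higher (Twist2, not called by DESeq2). Dlx5 stood at 2.02 and 4.91 CPM against 114 and 115 CPM in Dlx6/Msx2 SMCs (-5.09 ± 0.27, edgeR adjusted p = 7.4e-11), and Dlx2 had 1 and 0 UMIs against 26 and 26. The rule used Dlx6, the neighbor of Dlx5, and took the Dlx6/Msx2 SMCs for their Dlx and Msx UMIs, so the count of this list is not independent of it. In the same comparison Tfap2b, an AP-2 factor gene of the neural crest, stood at 1.01 and 4.91 CPM against 69.5 and 81.0 CPM (-4.87 ± 0.33), with 7 of its 8 UMIs of aorta 2 in 1 cell. Sox9, a chondrogenic factor gene, stood at 8.83 and 12.3 CPM against 94.9 and 71.0 CPM (-2.87 ± 0.28). Against the Hox SMCs the median was 0.01 and 1 of 16 passed, the mesenchymal homeobox gene Prrx1, at 57.0 and 67.0 CPM against 98.2 and 91.0 CPM (-0.61 ± 0.13).

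Hox genes outside the rule had 1 higher and 7 lower of 14 against the other SMCs (0 and 3 with DESeq2) and 1 higher and 6 lower of 13 against the Hox SMCs. These counts are not independent of the rule, which required that members hold none of its 4 Hox genes, and Hoxb5os overlaps the rule gene Hoxb6 in the annotation. Hoxb4 stood at 11.6 and 10.4 CPM against 32.7 and 37.9 CPM in Hox SMCs (-1.61 ± 0.22) and 23.6 and 29.8 CPM in Dlx6/Msx2 SMCs. Hoxb3os, named as an antisense transcript of Hoxb3, went the other way at 39.9 and 45.5 CPM against 12.9 and 8.84 CPM in Hox SMCs (1.95 ± 0.22). The anterior gene Hoxa3 was at 28.3 and 34.4 CPM, close to Hox SMCs at 27.6 and 28.6 CPM and below Dlx6/Msx2 SMCs at 81.9 and 64.2 CPM.

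Of 39 tested contractile genes 10 rose and 0 fell against the other SMCs, where 1.43% of all genes rose, and the median log2 difference was 0.15. Without TMM 8 rose and 1 fell. With the aorta as a term 20 rose and 3 fell. Acta2 (smooth muscle alpha-actin) stood at 24836 and 24693 CPM against 20769 and 21345 CPM (0.31 ± 0.05) and Tagln at 13453 and 12899 CPM against 11364 and 11316 CPM (0.30 ± 0.06). Mylk4, a myosin light chain kinase gene, was at 235 and 276 CPM against 150 and 161 CPM (0.79 ± 0.09, edgeR adjusted p = 0.0005). Myocd, the coactivator gene for smooth muscle transcription, was at 83.0 and 86.0 CPM against 60.1 and 66.5 CPM (0.50 ± 0.10, not called by DESeq2). Against the Dlx6/Msx2 SMCs 27 rose and 2 fell of 39 (23 and 3 without TMM), with Mylk4 at 26.1 and 28.3 CPM in that class. Against the Hox SMCs Tnnt2 and Des rose and Susd5 fell (5 and 3 with the aorta as a term, 1 and 1 with DESeq2), the median was -0.01, with Acta2 there at 25224 and 25378 CPM.

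Of 20 elastic fiber genes 0 rose and 6 fell against the other SMCs (4 with DESeq2), where 2.55% of all genes fell, with a median of -0.28. The count was 1 higher and 12 lower against Dlx6/Msx2 SMCs (median -0.69), where 9.38% of all genes rose and 8.77% fell. With the aorta as a term the count against the other SMCs was 2 higher and 11 lower. The microfibril gene Mfap5 stood at 416 and 519 CPM against 2253 and 2266 CPM in Dlx6/Msx2 SMCs (-2.10 ± 0.11) and 371 and 360 CPM in Hox SMCs. Eln, which encodes tropoelastin, was at 2790 and 2465 CPM against 5366 and 5516 CPM in Dlx6/Msx2 SMCs (-0.86 ± 0.09) and did not pass against all other SMCs (3376 and 3209 CPM). Against the Hox SMCs the microfibril gene Mfap4 (0.61 ± 0.09) and the fibulin gene Fbln5 (0.41 ± 0.10) rose and 0 fell (5 and 0 with the aorta as a term). Against SMCs with no marker UMI 0 rose and 0 fell (1 and 2 with the aorta as a term).

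Collagen genes had 0 higher and 6 lower of 23 (median -0.21), and 3 higher and 10 lower with the aorta as a term. The 3 type VI chains Col6a1, Col6a2 and Col6a3 fell against each of the other SMCs, the Dlx6/Msx2 SMCs and the Hox SMCs, with Col6a2 against the Hox SMCs (-0.45) not called by DESeq2. Col6a3 stood at 112 and 90.3 CPM in the class, 178 and 160 CPM in Dlx6/Msx2 SMCs and 234 and 243 CPM in Hox SMCs (-1.18 ± 0.11 against Hox SMCs, edgeR adjusted p = 5.8e-06). Col3a1, the most abundant that did not pass, was at 1275 and 1259 CPM against 1212 and 1152 CPM. Other matrix genes moved both ways, with 7 higher and 11 lower of 51 (16 and 16 with the aorta as a term, 6 and 6 with DESeq2). Fn1, the fibronectin gene, was at 376 and 442 CPM against 776 and 856 CPM in the other SMCs (-0.92 ± 0.09), and tenascin-C (Tnc) at 10.8 and 7.99 CPM lay between Hox SMCs at 59.0 and 53.5 CPM and Dlx6/Msx2 SMCs at 1.24 and 0 CPM.

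**Figure D5:**
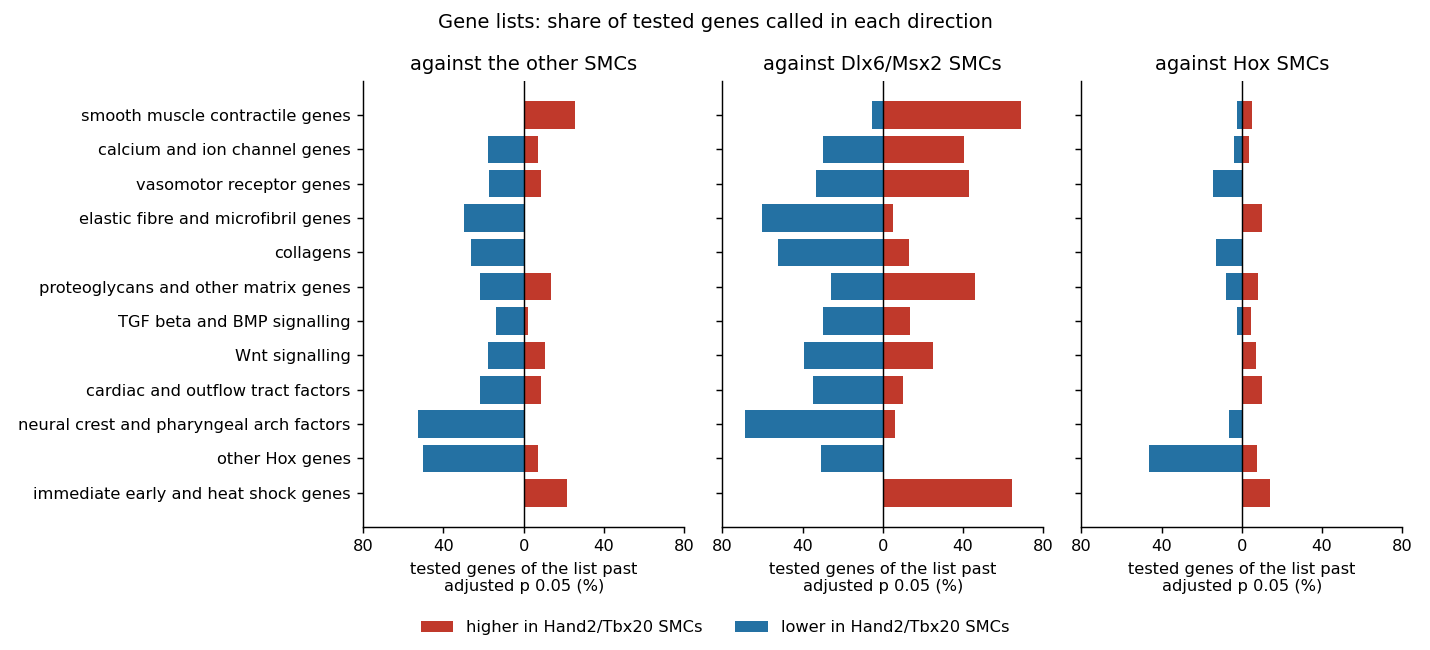
Share of the tested genes of 12 lists, in percent, that were called higher (red, to the right) or lower (blue, to the left) in Hand2/Tbx20 SMCs at an edgeR adjusted p of 0.05, against the other SMCs, the Dlx6/Msx2 SMCs and the Hox SMCs. Contractile genes lie mostly to the right against Dlx6/Msx2 SMCs (27 of 39) and elastic fiber and arch genes to the left (12 of 20 and 11 of 16), while against Hox SMCs the largest share called was that of the other Hox genes (7 of 13).

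In the list of TGF-β and BMP genes 1 rose and 6 fell of 44 (5 and 12 with the aorta as a term, 1 and 3 with DESeq2), where 1.43% of all genes rose and 2.55% fell. Bmp3, higher as given above, is not in this list. The most abundant that did not pass were the BMP and Wnt antagonist gene Sost, at 801 and 1159 CPM against 824 and 905 CPM, and the follistatin-like gene Fstl1, at 643 and 617 CPM against 649 and 618 CPM. Beside Grem1, noggin (Nog) had 1 and 0 UMIs against 28 and 23, a ratio of 20.7 (3.56 to 835) in favor of the other SMCs that DESeq2 did not call, and the BMP family gene Gdf10 stood at 6.81 and 9.21 CPM against 49.2 and 36.4 CPM (-2.42 ± 0.24). The list's higher gene was the ligand gene Tgfb2, at 146 and 118 CPM against 102 and 91.6 CPM (0.55 ± 0.12). Of 28 tested Wnt genes 3 rose and 5 fell (2 and 3 with DESeq2). The secreted Wnt inhibitor gene Wif1 was at 162 and 182 CPM against 112 and 107 CPM (0.72 ± 0.09), and the frizzled-related gene Frzb at 11.1 and 11.7 CPM against 55.7 and 53.3 CPM (-2.18 ± 0.15). In the Notch list 1 of 13 rose (Heyl, 0.67 ± 0.16), which was 0 without TMM or with DESeq2 and 2 with the aorta as a term, and in the retinoid list 2 of 10 rose (among them Rbp4) and 0 fell (4 and 1 with the aorta as a term).

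Receptor and channel genes of vascular tone were split. Of 23 vasomotor genes 2 rose and 4 fell (3 and 7 with the aorta as a term). Ednra, the endothelin A receptor gene, stood at 3.78 and 5.53 CPM against 45.0 and 32.3 CPM (-3.08 ± 0.28, edgeR adjusted p = 0.00012), with 131 and 91.7 CPM in Dlx6/Msx2 SMCs and 13.8 and 9.36 CPM in Hox SMCs. Both subunit genes of the nitric oxide receptor guanylate cyclase rose, Gucy1a1 at 480 and 438 CPM against 335 and 330 CPM (0.55 ± 0.08) and Gucy1b1 at 329 and 310 CPM against 230 and 241 CPM (0.52 ± 0.08). Both also rose against Dlx6/Msx2 SMCs (log2 differences 1.39 and 1.30). Against Hox SMCs, and against SMCs with no marker UMI, 0 of 21 vasomotor genes rose and 3 fell (2 and 4 in each with the aorta as a term). Of 28 calcium and ion channel genes 2 rose and 5 fell (1 and 3 with DESeq2), among them the KATP channel gene Kcnj8 at 19.7 and 31.9 CPM against 95 and 98.8 CPM (-1.94 ± 0.16) and the potassium channel gene Kcnk3 at 9.84 and 8.60 CPM against 28.9 and 26.9 CPM. In the growth factor list 4 rose and 6 fell of 37 (7 and 11 with the aorta as a term, 1 and 2 with DESeq2), with midkine (Mdk) at 10.3 and 7.99 CPM against 52.6 and 58.0 CPM. In the guidance and adhesion list 2 rose and 9 fell of 49 (7 and 12 with the aorta as a term, 1 and 5 with DESeq2), among them the ephrin receptor gene Epha3 at 3.78 and 6.76 CPM against 25.3 and 26.2 CPM.

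Markers of other cells were measured beside these results. Small-vessel mural markers summed to 284 and 456 CPM in the class against 1580 and 1333 CPM in the other SMCs, with 4 of 8 tested lower (Rgs5, Kcnj8, Abcc9 and Olfr558, the last not called by DESeq2). These markers summed to 3647 and 2719 CPM in Dlx6/Msx2 SMCs and 893 and 914 CPM in Hox SMCs. They summed to 1024 and 944 CPM in SMCs with no marker UMI. The pericyte genes Vtn and Higd1b had 0 and 3 UMIs in the class, and both had 0 UMIs in Dlx6/Msx2 and Hox SMCs. Cardiomyocyte markers summed to 342 and 164 CPM against 110 and 99.4 CPM, and 1 of 4 tested rose (2 with the aorta as a term), Tnnt2, which also stands in the contractile list. Ryr2, the ryanodine receptor gene, was at 50.5 and 42.4 CPM against 47.5 and 45.97 CPM, and the myosin light chain gene Myl4 at 11.9 and 14.7 CPM against 10.2 and 10.3 CPM, and neither passed. Of the others Nppa had 0 UMIs, Myh6 5 and 0, Actc1 10 and 0, Tnni3 7 and 2, Myh7 5 and 1, Ttn 3 and 1 and Myl7 46 and 1. Mesothelial markers summed to 134 and 60.2 CPM against 95.4 and 79.9 CPM, with Krt18 higher at 61.1 and 55.9 CPM against 40.03 and 42.4 CPM (0.61 ± 0.12, not called by DESeq2), while Upk3b had 97 UMIs in aorta 1 and 1 in aorta 2. Leukocyte markers summed to 173 and 107 CPM against 143 and 51.8 CPM with 0 of 8 called (4 higher with the aorta as a term), fibroblast markers to 453 and 127 CPM against 407 and 409 CPM with 1 of 10 lower (4 with the aorta as a term, 0 with DESeq2), and endothelial markers to 38.6 and 35.6 CPM against 33.5 and 39.1 CPM with 0 of 5 called (1 with the aorta as a term). Chondrocyte and valve markers summed to 121 and 188 CPM against 158 and 169 CPM and had 3 of 6 lower (2 higher and 3 lower with the aorta as a term, 0 and 1 with DESeq2), Schwann and neural markers 0 of 1 called, and p53 targets 0 of 8. Their part in the other differences was not tested.

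Immediate-early and heat shock genes, which respond to handling as well as to signals in the tissue, were also counted. Against the other SMCs 3 of 14 rose (Fos, Dnajb1 and Hsp90aa1) and 0 fell, with a median of 0.47 (2 rose with DESeq2, 11 with the aorta as a term), and the Fos call rests in aorta 2 on 1 cell. Against Dlx6/Msx2 SMCs 9 rose, and against Hox SMCs 2 (7 with the aorta as a term, 0 with DESeq2). Dnajb1 stood at 73.4 and 68.2 CPM against 50.1 and 43.2 CPM (0.69 ± 0.12). Atf3 was at 427 CPM in aorta 1 and 138 CPM in aorta 2 of the class, against 201 and 117 CPM, and did not pass. The part of these genes, and of the greater depth of the class, in the other differences was not tested.

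Across the 10 sums of 5 classes and 2 aortas, the genes most like Hand2 by Pearson correlation of log2(CPM + 1) were Tbx20 (r = 1.00) and Hand2os1 (r = 0.986), which the rule fixes, followed by Dsp, the desmoplakin gene (r = 0.929), Cactin (r = 0.874) and Gcat (r = 0.872). The rule sets Hand2 to 0 UMIs in the Dlx6/Msx2, Hox and no-marker sums, so r largely restates the split between members and other cells for Dsp, Cactin and Gcat too. The sums share 2 libraries, and each r is a description over these 10 points. Dsp stood at 238 and 233 CPM in the Hand2/Tbx20 SMCs against 182 and 177 CPM in the other SMCs (0.47 ± 0.08, edgeR adjusted p = 0.0072), while Cactin and Gcat did not pass that test.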

How the data were processed

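Aortic cells were profiled with the Chromium 3′ v3.1 chemistry, 1 library per aorta. The deposited matrices hold raw UMI counts per gene and cell, made by the authors with Cell Ranger (version 4.0.0 per the file headers) on mm10 with eGFP and tdTomato added. Totals were 47009780 and 30919996 UMIs. The members and the gene lists were chosen with earlier results of these data known. UMIs were summed per aorta and class, scaled by TMM, filtered with filterByExpr and tested with edgeR 4.0.16 (glmQLFit, glmQLFTest) in R 4.3.3, with rule and gate genes kept in the scaling and left out of the tests. Cells are not replicates, so n = 2 aortas from separate animals. The fit with the other SMCs had 4 sums, and the fit of 5 classes 10 sums. Alternatives were DESeq2 1.42.0, other filters, gates and depths, and the aorta as a block. The sums of an aorta pair by animal: across 3015 genes the differences between aortas in the Hand2/Tbx20 SMCs correlated with those of the other classes (r = 0.169 to 0.377). The script was tested on simulated data. Scrublet marked 205 of 6744 and 84 of 4698 cells as doublets, which were kept except in an alternative.

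Named genes had an adjusted p under 0.05, kept their direction in each aorta taken alone, and had at least 20 UMIs per aorta in the higher class. The 12 highest and 12 lowest were taken against the other SMCs and 6 and 6 against each class, leaving out predicted and mitochondrial genes. From each of 25 lists up to 4 called genes with the largest difference and 2 abundant genes not called could be named, and a few further list genes were named after their values were seen. A gene at 0 UMIs is given by a bound against 3 UMIs, and one at 1 to 3 UMIs by the ratio of UMIs with an exact 95% interval. Gene IDs were matched to GENCODE for 32235 of 32285 genes. Promoter windows came from RefSeq. Some genes that met the rule are not reported here.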

Additional observations from a re-analysis of the deposited data

Results flagged for a closer look

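Hand2 or Hand2os1 UMIs were also present in cells outside the SMC gate, which no comparison of the report uses. At 3000 UMIs per cell they were found in 10.9% and 7.31% of the fibroblast-gated cells (at least 2 UMIs of Pdgfra) of aortas 1 and 2, and in 5.39% and 4.44% of the endothelial-gated cells (at least 3 UMIs of Pecam1 and Cdh5). In leukocyte-gated cells the shares were 0.274% and 0.693%, with exact 95% upper bounds of 0.987% and 2.01%, below the lower bounds of both other cell kinds. As counted, the fibroblast-gated shares were 19.0% and 14.1% at medians of 6483 and 6232 UMIs. Tbx20 in fibroblast-gated cells was at 1.90% and 0.366% after thinning.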

How the results depend on the processing

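With 2 aortas, the tests have few residual degrees of freedom, and leaving out either aorta leaves no test, so only fold changes were recomputed. By the naming rule, all 60 named differences (a gene counted once per comparison) had the same direction in each aorta alone. They also kept that direction under every alternative that gave them a value. Of 647 such values with a test 49 fell below the threshold, and 0 reversed. The 120 fold changes in 1 aorta alone have no test, and their direction was fixed by the naming rule. The 49 lost were 19 of the 23 with a value when members were chosen by Tbx20 alone, 13 of the 37 with a value at 3000 UMIs per cell, 12 of 60 with DESeq2, 3 of 60 at 2 UMIs per family and 1 each with at least 5000 UMIs per cell (Pola2 against SMCs with no marker) and with members by Hand2 and Hand2os1 alone (Fos). Choosing members by Tbx20 alone also moved the members with Hand2 or Hand2os1 alone into the other SMCs. Asking for 2 UMIs per family moved the members with 1 marker UMI there.

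The counts of called genes moved by over 1.5 times as follows. Against the other SMCs (461) they were 1137 with the replicate block (pairing by aorta), 227 with DESeq2, 831 with no filter on low counts, 95 at 3000 UMIs per cell and 121 with members by Tbx20 alone. Against Dlx6/Msx2 SMCs (1925) the count was 741 at 3000 UMIs. Against Hox SMCs (186) they were 353 with the replicate block, 121 with DESeq2, 353 with no filter and 47 at 3000 UMIs. Against SMCs with no marker (136) they were 273 with the block, 85 with DESeq2, 295 with no filter and 48 at 3000 UMIs. Between Hand2 and Tbx20 cells (0) they were 5 with the block, 15 with no filter, 1 at 3000 UMIs and 1 without doublets. Pairing by aorta ended no call of a named gene. Fewer UMIs per cell leave both smaller sums and fewer members, and the other causes were not tested.

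The mean share of Hand2/Tbx20 SMCs (24.9%) was 13.8% at 2 UMIs per family and 13.9% at 3000 UMIs, and 19.1% to 30.7% with either aorta left out. Tbx20 was more frequent by 11.03 percentage points in SMCs with Hand2 or Hand2os1, by 3.00 at 2 UMIs per family, by 6.71 at 3000 UMIs and by 9.69 to 12.4 with either aorta left out.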
